A study of Mus musculus with 4 samples.

Results

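The genes described here handle oxidants, glutathione and iron. They were 37 genes listed by symbol and found through the RefSeq accessions of the array's probes, and all 37 of the 37 listed were among the 20832 genes with a symbol on the array. All 37 also passed the filter on dim probes, as did 17024 genes with a symbol and 24575 features in all. The samples were total RNA of the ipsilateral cortex of 8-week-old C57BL/6 mice, taken 24 h after permanent occlusion of a middle cerebral artery (permanent MCAO), which models ischaemic stroke. Wild-type mice and mice labelled Ndrg2KO were compared, and both genotypes had been operated on, so there was no group without ischaemia. Each of the 4 two-colour Agilent arrays paired 1 Ndrg2KO sample in the Cy3 dye with the wild-type sample of its replicate number in the Cy5 dye, and no array had the opposite dyes. A dye effect that normalization leaves in place, of a single probe or of bright probes as a set, therefore cannot be told apart from the genotype. Ndrg2 is strongly expressed in astrocytes, and the labels give no deleted part and no cell type in which the gene was lost.

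Cells keep oxidants low with several linked systems. The transcription factor NRF2, encoded by Nfe2l2 and held in check by KEAP1, drives many genes for glutathione synthesis, conjugation and thioredoxin recycling. Glutathione peroxidases and peroxiredoxins remove peroxides, superoxide dismutases and catalase remove superoxide and hydrogen peroxide, and ferritin stores iron in a form that cannot feed oxidant chemistry. When these fail, lipid peroxides accumulate and cells can die by ferroptosis, an iron-dependent form of death studied after stroke and haemorrhage.

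Values are log2 ratios, knockout-labelled over wild type, given as mean ± SD over the 4 arrays, so that a value above 0 is a higher level in the knockout-labelled samples. A gene passed the test at a Benjamini-Hochberg adjusted p under 0.05 over all features (limma). The labels do not say that the samples of a group came from separate animals, so p-values measure the spread between these samples alone, and that spread may be technical. Of the 43020 spots of an array, 73.6 to 74.9% (Cy3) and 76.7 to 79.0% (Cy5) were well above background, and the number of arrays limits the precision. All 10 neuron, 12 astrocyte, 12 microglia and 10 oligodendrocyte markers examined were measured in this cortex. Arrays 1 and 2 resembled each other (r = 0.73 across all features) and so did arrays 3 and 4 (r = 0.63), more than the other pairs did (r = 0.41 to 0.48). The targeted gene was hardly lower: its log2 levels on arrays 1 to 4 were 15.50, 15.56, 15.57 and 15.56 in the knockout-labelled samples and 15.72, 15.78, 15.75 and 15.67 in the wild type, a difference of -0.18 ± 0.05 (limma, adjusted p = 0.0248). With the scanner software's log ratios it stood at -0.04 (adjusted p = 0.529), and the call was also lost without replicate 1, 2 or 3. The probe need not lie in the deleted part, so this does not check the genotype, and the samples are called knockout-labelled.

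Most of the oxidant defence differed little between the genotypes. Of the 37 genes, 2 rose (the peroxidase genes Gpx4 and Prdx2), 5 fell (the ferritin genes Fth1 and Ftl1, the iron transporter gene Slc11a2, Sod1 and Cat), and 30 did not pass. That made 18.9% of the genes, against 21.3% of all 24575 features (8.63% higher and 12.7% lower), so the set did not hold more changed genes than the array as a whole. Their median was -0.02, as was that of all features. Small sizes prevailed: 33 of the 37 lay within 0.2 of 0 on the log2 scale, 20 within 0.1, and the ferritin genes alone went beyond 0.3. Fth1 alone of the 37 passed with a change of at least 1.5-fold, as did 0.505% of all features. The number of falls was 2 with the scanner software's log ratios or the mean of probes and 3 with any 1 replicate left out, and with median centring 33 genes fell and 0 rose, when 53.6% of all features fell. For 27 genes the 95% interval of the mean lay wholly within 0.3 of 0.

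**Figure D1:**
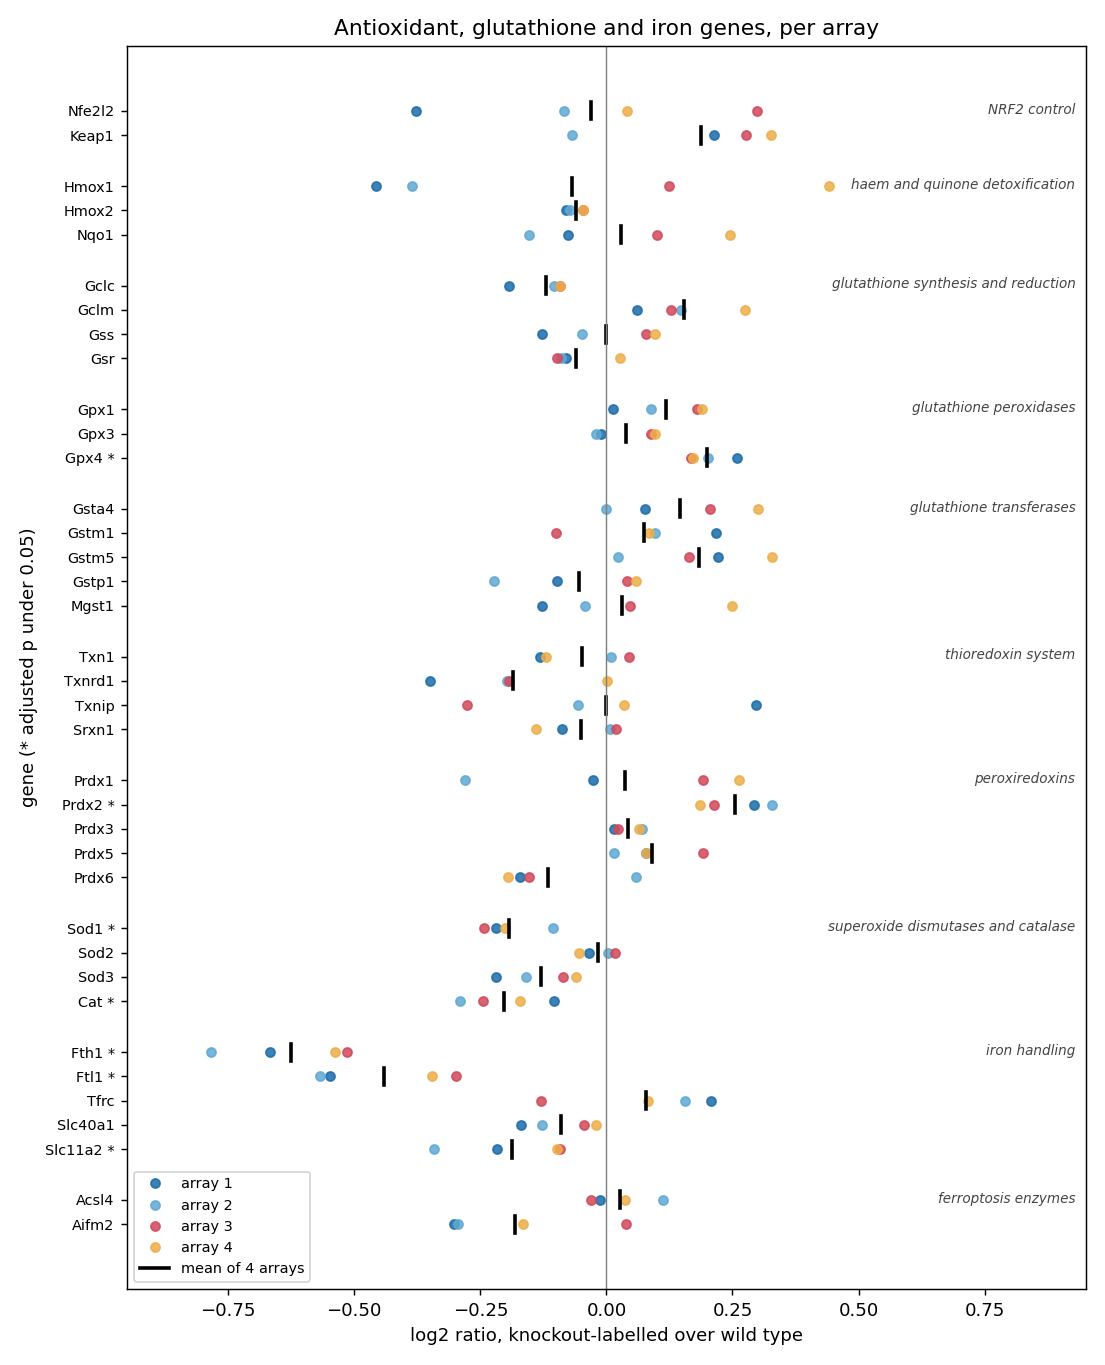
Log2 ratio, knockout-labelled over wild type (x axis), for each of the 37 genes (y axis, grouped by role), with 1 point per array and a bar at the mean of 4 arrays. Fth1 and Ftl1 lie farthest to the left on every array, Gpx4 and Prdx2 lie above 0 on every array, and Hmox1, Nfe2l2, Prdx1 and Txnip are spread to both sides of 0.

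The ratio had the same sign on all 4 arrays for 17 of the 37 genes, against 43.8% of all features. The 4 knockout-labelled levels all lay above the 4 wild-type levels for Gpx4, Prdx2, Gclm and Gstm5 (9.1% of all features), and all below for Fth1, Ftl1, Sod1 and Gclc (10.7% of all features), so 8 genes did not overlap in either direction (19.8% of all features). Cat and Slc11a2 passed the test, which pairs the samples of an array, although their levels overlapped between the genotypes.

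Ferritin showed the largest differences. Fth1, the heavy chain, which oxidises iron for storage, had log2 levels of 17.00, 16.87, 17.07 and 17.07 on arrays 1 to 4 in the knockout-labelled samples and 17.67, 17.66, 17.59 and 17.61 in the wild type. The groups did not overlap, and the ratios were -0.67, -0.78, -0.51 and -0.54. Fth1 thus fell by 0.63 ± 0.12, or 1.54-fold (limma, adjusted p = 0.00179). Ftl1, the light chain, which helps the iron core to form, had levels of 15.99, 16.03, 16.36 and 16.07 against 16.54, 16.60, 16.66 and 16.41, again with no overlap. It fell by 0.44 ± 0.14, or 1.36-fold (limma, adjusted p = 0.00532). For both chains the ratio was lowest on array 2 and closest to 0 on array 3.

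The call of Fth1 was kept in all 13 other settings, with values from -1.44 to -0.40 and adjusted p up to 0.0231. Ftl1 passed in 12 of 13 and lost its call (-0.20, adjusted p = 0.0711) when the probes of a gene were averaged. Its other kept probe stood at 0.03 ± 0.20, with -0.11, -0.17, 0.21 and 0.20 on arrays 1 to 4. The brighter Ftl1 probe lay below this probe by 0.47 ± 0.06, on all 4 arrays. Ftl1 has near-identical processed copies, and without the probe sequences it is uncertain which transcripts each probe measured.

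Both ferritin probes were also among the brightest on the array, and bright features were lower as a set. The Fth1 probe ranked 8 in brightness among 24575 features and the Ftl1 probe 175. The brightest 100 features had a median ratio of -0.37, 87 of them passed as lower and 1 as higher, and 5 had a ratio below that of Fth1. Fth1 lay 0.26 below that median, and 0.20 to 0.36 below it over all settings. Among the brightest 250 features 39 had a ratio below that of Ftl1. Ftl1 lay 0.39 below the median of the brightest 1000 features beyond the first 100 (-0.05), and 0.18 (mean of probes) to 0.47 (median centring) below it over all settings, a grouping chosen after the values were seen. The brightest 250, which hold Ftl1, had a lower median of -0.21. What part of the ferritin ratios goes with brightness was not tested.

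**Figure D2:**
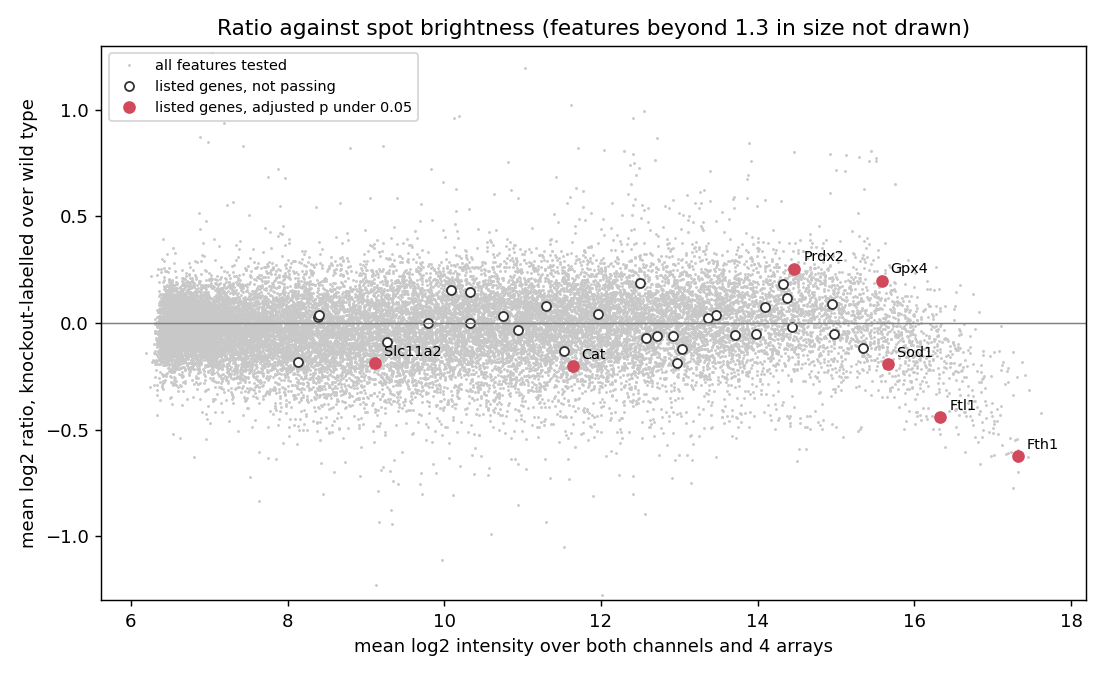
Mean log2 ratio, knockout-labelled over wild type (y axis), against mean log2 intensity over both channels and 4 arrays (x axis), for all features tested (grey) and for the 37 genes (circles, filled where the adjusted p was under 0.05). The cloud bends below 0 at the bright end, where Fth1 lies below and Gpx4 above most features of similar brightness.

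The promoters of both chains were searched for the sequence that NRF2 binds, since ferritin genes are known NRF2 targets. The strict motif TGANTCAGC, on either strand, was not in the 250 bases before the listed starts of Fth1 or Ftl1. Enhancer elements farther away lie outside this window. The last 100 bases before the start (the downstream of 2 listed starts for Fth1) are shown 5′ to 3′ on the gene's strand, from RefSeq on build GRCm38.p6, all in lower case as neither holds the motif.
Fth1 promoter, chr19:9982546-9982645, + strand: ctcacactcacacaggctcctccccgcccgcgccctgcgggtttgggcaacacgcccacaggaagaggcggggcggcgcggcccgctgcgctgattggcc
Ftl1 promoter, chr7:45459887-45459986, - strand: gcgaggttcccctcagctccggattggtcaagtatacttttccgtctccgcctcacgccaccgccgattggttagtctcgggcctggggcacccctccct

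The other iron genes differed less. Slc11a2, which encodes the divalent metal transporter DMT1, had levels of 8.98, 9.0, 9.17 and 8.95 against 9.20, 9.34, 9.26 and 9.04, and fell by 0.19 ± 0.12 (limma, adjusted p = 0.0481). This call was lost in 11 of 13 other settings, in each of which the value stayed below 0, and its other probe stood at -0.06. Slc40a1, encoding the iron exporter ferroportin, was at -0.09 ± 0.07 (adjusted p = 0.185), below 0 on all 4 arrays. Tfrc, the transferrin receptor gene, was at 0.08 ± 0.15 (adjusted p = 0.383). A dimmer Tfrc probe gave 0.39 ± 0.21 (limma over kept probes, adjusted p = 0.0149) and the dimmest 0.01, so its 3 probes did not give 1 answer.

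Gpx4 and Prdx2 were the genes that rose. Gpx4, the selenoenzyme that reduces lipid peroxides in membranes and restrains ferroptosis, had levels of 15.75, 15.62, 15.65 and 15.69 in the knockout-labelled samples and 15.50, 15.42, 15.48 and 15.52 in the wild type. The groups did not overlap, and Gpx4 rose by 0.20 ± 0.04, or 1.15-fold (limma, adjusted p = 0.0179). Prdx2, a cytosolic peroxiredoxin abundant in neurons, had levels of 14.67, 14.55, 14.58 and 14.60 against 14.37, 14.22, 14.36 and 14.41. It rose by 0.26 ± 0.07, or 1.19-fold (limma, adjusted p = 0.0109). Without replicate 1 or 2 the adjusted p of Gpx4 was 0.0658 and 0.0639.

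The direction of both turned with median centring of the arrays in place of loess, which leaves any trend with brightness in place: Gpx4 stood at -0.42 and Prdx2 at -0.25, while the median of all features moved from -0.02 to -0.18 and that of the brightest 100 to -1.14. Against features of similar brightness both remained higher under that setting too. Gpx4 lay 0.25 above the median of the brightest 1000 beyond the first 100, and 0.23 to 0.26 above it over all settings. Prdx2 lay 0.16 above the median of features between the 80th and 96th percentile of brightness, and 0.16 to 0.25 above it over all settings. With loess, 17.7% of the features in that range passed as higher, against 8.63% of all features, and their ratios had a 90th percentile of 0.22. For the brightest 1000 the share was 9.6% and the 90th percentile 0.16. These groupings were chosen after the values were seen.

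The other peroxidases did not pass. Gpx1, the main cytosolic glutathione peroxidase, was at 0.12 ± 0.08 (adjusted p = 0.114) and above 0 on all 4 arrays, and Gpx3, the secreted form, at 0.04 ± 0.06. Among peroxiredoxins, the mitochondrial Prdx3 was at 0.04 ± 0.03 and Prdx5 at 0.09 ± 0.07, both above 0 on all arrays, and Prdx1 at 0.04 ± 0.24. Prdx6, which reduces phospholipid peroxides and is rich in astrocytes, was at -0.12 ± 0.12 (adjusted p = 0.167). A pair of its other probes stood at 0.22 and 0.21 (limma over kept probes, adjusted p = 0.0155 and 0.0194) and a very dim one at -0.09. The brightest probe lay below that pair by 0.34 ± 0.10 and 0.32 ± 0.07. A near-identical copy, Prdx6b, exists, and which transcript each probe measured is uncertain.

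The superoxide dismutases and catalase all had means below 0, although that of Sod2 was no lower than the median of all features (-0.02). Sod1, the copper-zinc enzyme of the cytosol, had levels of 15.54, 15.62, 15.53 and 15.60 in the knockout-labelled samples and 15.76, 15.73, 15.77 and 15.80 in the wild type, without overlap. It fell by 0.19 ± 0.06 (limma, adjusted p = 0.0228). The Sod1 call was lost in 5 of 13 settings, among them the scanner software's log ratios (-0.03) and the omission of replicate 1, 3 or 4. The Sod1 probe was among the brightest 1000 features, of which 29% passed as lower. Sod1 lay 0.145 below the median of the brightest 1000 beyond the first 100, and 0.06 to 0.18 below it over all settings. What part of the Sod1 ratio goes with brightness was not tested. Catalase (Cat), which breaks down hydrogen peroxide in peroxisomes, had levels of 11.71, 11.43, 11.67 and 11.33 against 11.81, 11.72, 11.92 and 11.50, each lower than its partner on the array. It fell by 0.20 ± 0.08 (limma, adjusted p = 0.0250), and its call was lost in 6 of 13 settings, among them the mean of its probes (-0.12), the fit without the replicate block, and the omission of replicate 2, 3 or 4. Sod3, the extracellular enzyme, was at -0.13 ± 0.07 (adjusted p = 0.0793) and the mitochondrial Sod2 at -0.02 ± 0.03, with a 95% interval from -0.11 to 0.08.

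**Figure D3:**
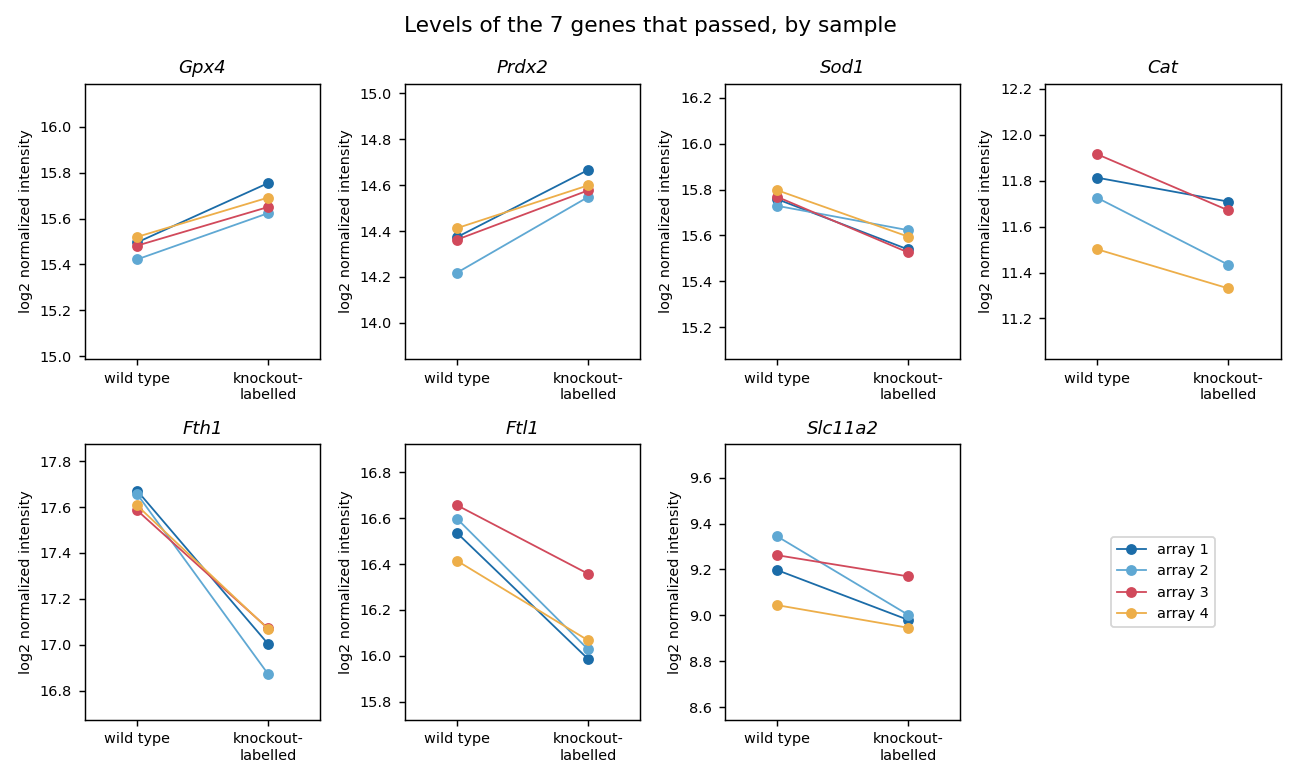
Log2 normalized intensity (y axis, each panel with its own range of equal height) of the 7 genes that passed the test, with each line joining the wild-type and the knockout-labelled sample of 1 array. Every line rises for Gpx4 and Prdx2 and falls for the other genes, and on average the lines of Fth1 are the steepest.

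Neither gene of the NRF2 pair passed, nor did the haem oxygenases or Nqo1. Nfe2l2 had ratios of -0.38, -0.08, 0.30 and 0.04 on arrays 1 to 4, a mean of -0.03 ± 0.28 (adjusted p = 0.849). Keap1 was at 0.19 ± 0.18 (adjusted p = 0.0931), above 0 on 3 of 4 arrays, and passed without replicate 2 (0.27). Hmox1, the inducible haem oxygenase that frees iron from haem, had the widest spread of the 37 genes, with -0.46, -0.38, 0.12 and 0.44 and a mean of -0.07 ± 0.43 (adjusted p = 0.758). Its levels were 11.92, 12.33, 12.98 and 12.92 against 12.38, 12.71, 12.86 and 12.48, so it was lower in the knockout-labelled sample on arrays 1 and 2 and higher on arrays 3 and 4. Its second probe showed the same order, with -0.37, -0.29, 0.28 and 0.54. The 95% interval of Hmox1, from -0.40 to 0.27, leaves room for a difference in either direction. Hmox2, the constitutive form, was at -0.06 ± 0.02, the narrowest spread of the set. A dimmer Hmox2 probe gave 0.16 ± 0.05 (limma over kept probes, adjusted p = 0.0342). Nqo1, a quinone reductase, was at 0.03 ± 0.18.

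None of the glutathione synthesis genes passed, and with loess the subunits of its first enzyme lay on opposite sides of 0. Gclc, the catalytic subunit of glutamate-cysteine ligase, had ratios of -0.19, -0.10, -0.09 and -0.09, a mean of -0.12 ± 0.05 (adjusted p = 0.0806), and its levels did not overlap. Gclm, the modifier subunit of the same enzyme, had 0.06, 0.15, 0.13 and 0.28, a mean of 0.15 ± 0.09 (adjusted p = 0.0619), also without overlap. Over the 13 other settings Gclc ranged from -0.50 to -0.10 and Gclm from -0.09 to 0.18, so the sign of Gclm depended on the setting. Glutathione synthetase (Gss) was at 0.00 ± 0.11 and glutathione reductase (Gsr) at -0.06 ± 0.06. Of the transferases, which couple glutathione to reactive compounds, Gstm5 was at 0.18 ± 0.13 (adjusted p = 0.0564), Gsta4, which removes hydroxynonenal from lipid peroxidation, at 0.15 ± 0.13, Gstm1 at 0.08 ± 0.13, Mgst1 at 0.03 ± 0.16 and Gstp1 at -0.05 ± 0.13. Without background correction Gclm and Gstm5 passed as higher. Probes of the closely related Gstm genes may detect more than 1 of them.

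In the thioredoxin system Txnrd1, the reductase that recharges thioredoxin, was at -0.19 ± 0.14 (adjusted p = 0.0676) and passed without replicate 4. Txn1 was at -0.05 ± 0.09, and Srxn1, which repairs overoxidised peroxiredoxins, at -0.05 ± 0.08. Txnip, the thioredoxin inhibitor, had 0.30, -0.06, -0.28 and 0.03 on arrays 1 to 4, which average to 0.00 ± 0.24. Of the ferroptosis enzymes, Acsl4, which makes lipids prone to peroxidation, was at 0.03 ± 0.06 with a 95% interval from -0.08 to 0.13. Aifm2, whose product FSP1 regenerates an antioxidant form of coenzyme Q, was at -0.18 ± 0.16 (adjusted p = 0.0854) and passed without replicate 3, and its other probe stood at -0.01.

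**Figure D4:**
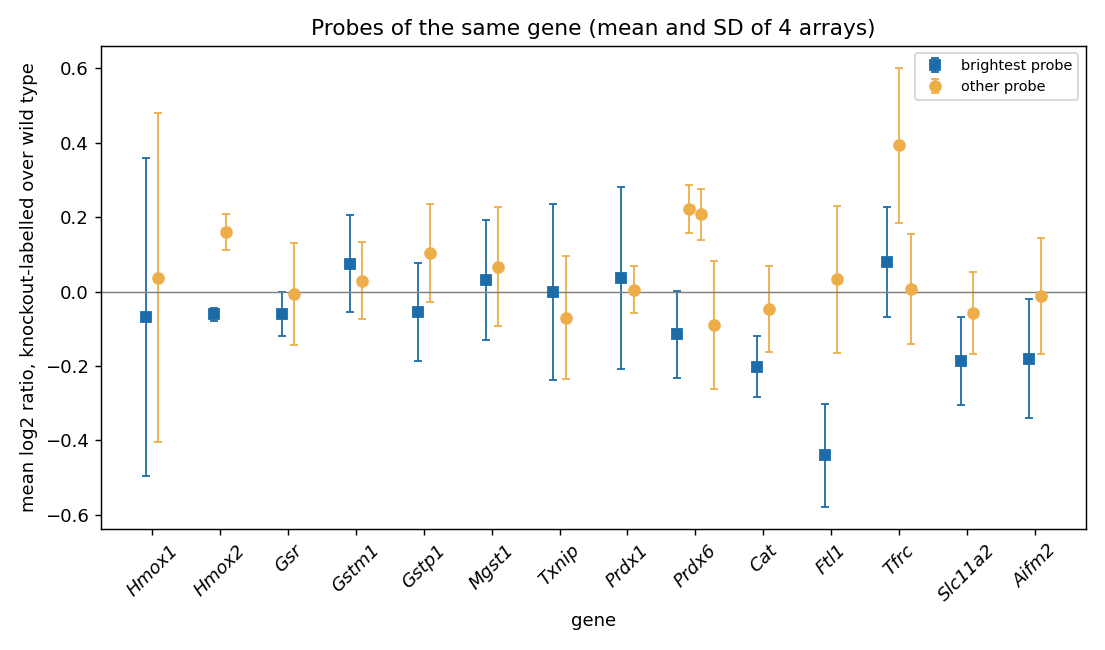
Mean log2 ratio, knockout-labelled over wild type (y axis; bars, SD of 4 arrays) for the 14 genes with several kept probes (x axis), with the brightest probe as a blue square and the others as orange circles. Ftl1, Hmox2, Prdx6 and Tfrc have probes that differ by more than 0.2, while those of Hmox1 share a wide spread.

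In all, 14 of the 37 genes had 17 other kept probes, and 11 of these 17 had the sign of the probe that stood for the gene. Of the genes that passed, Ftl1, Cat and Slc11a2 had a second probe, at 0.03, -0.05 and -0.06. Fth1, Gpx4, Prdx2 and Sod1 rested on 1 probe each.

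The strict NRF2 motif was found before 3 of the genes, none of which passed. RefSeq promoters were listed for 29 of the 37 genes and not for Gclc, Gsr, Gsta4, Hmox1, Prdx6, Slc11a2, Slc40a1 and Sod3. In the 250 bases before a start, TGANTCAGC occurred on either strand in 3 of the 29 (10.3%), against 1.17% of 27025 genes with a promoter entry. The loose form TGANNNNGC, which holds every strict match, occurred in 12 of the 29 (41.4%), against 38.7%. The 3 matches are printed to show where the motif lies before these starts, with the motif in capitals, 5′ to 3′ on the gene's strand, from RefSeq on GRCm38.p6. In Prdx1 the motif lies on the opposite strand.
Srxn1 promoter, chr2:152105434-152105523, + strand: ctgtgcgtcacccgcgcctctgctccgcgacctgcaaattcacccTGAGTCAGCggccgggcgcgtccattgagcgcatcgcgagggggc
Prdx1 promoter, chr4:116685429-116685508, + strand: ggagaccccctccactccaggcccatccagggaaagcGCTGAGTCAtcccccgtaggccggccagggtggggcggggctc
Gstp1 promoter, chr19:4037933-4038012, - strand: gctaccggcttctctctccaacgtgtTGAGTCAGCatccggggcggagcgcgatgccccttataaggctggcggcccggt
The matches begin 45, 133 and 74 bases before the start of Srxn1, Prdx1 and Gstp1. Srxn1 was at -0.05, Prdx1 at 0.04 and Gstp1 at -0.05, and a match is only a match of letters.

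Some of the uncalled genes split by array. Nfe2l2, Hmox1, Nqo1, Gss, Gpx3, Gstp1, Mgst1 and Prdx1, 8 of the 37 genes (21.6%), lay below 0 on arrays 1 and 2 and above 0 on arrays 3 and 4, a pattern that 5.54% of all features showed. No member showed the opposite split, which 5.48% of all features did. The pattern was chosen after the values were seen and was not tested. Monocyte and macrophage markers differed between the arrays in a like order, with list medians of -0.39, -0.55, -0.08 and 0.33 on arrays 1 to 4. So did erythrocyte (-0.29, -0.63, -0.13 and 0.19), oligodendrocyte (-0.13, -0.26, 0.25 and 0.37) and neutrophil markers (-0.22, -0.30, -0.12 and 0.04). Astrocyte, microglia and endothelial medians were below 0 on every array, and neuron medians were 0.06, 0.04, 0.03 and 0.00. Single markers could differ from their list, as did Mrc1 of the monocyte and macrophage list (-0.11, 0.39, -0.30 and -0.38). Whether the split of the 8 genes goes with cell differences was not tested.

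**Figure D5:**
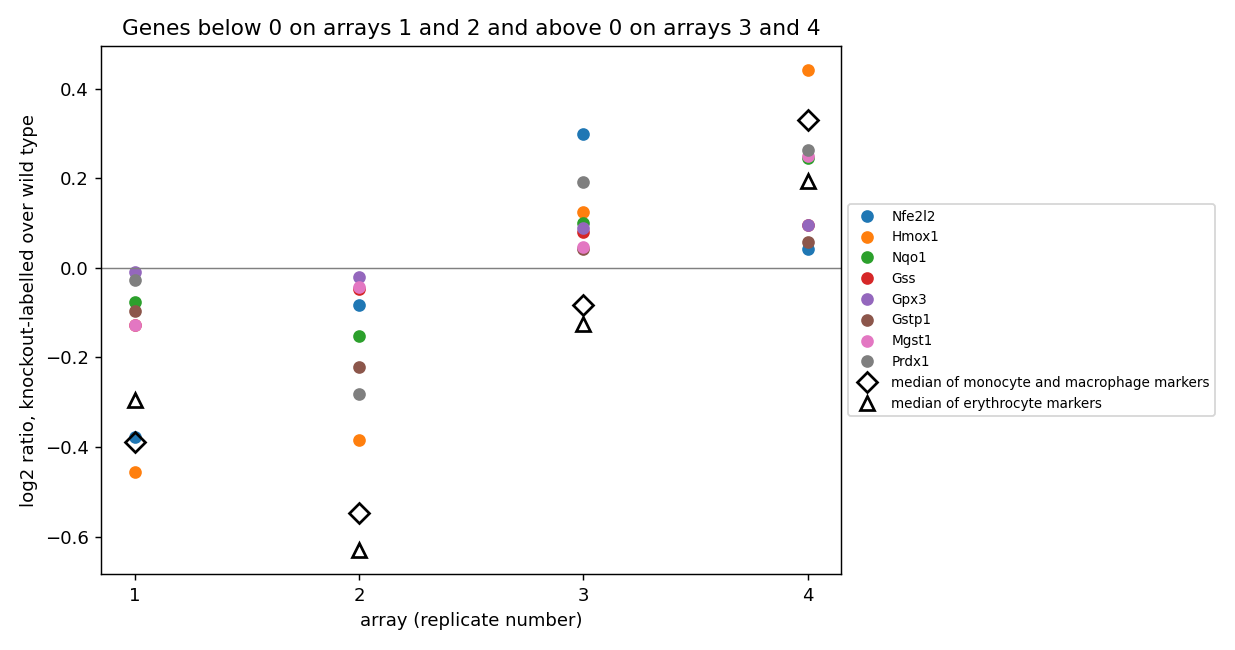
Log2 ratio, knockout-labelled over wild type (y axis), on each array (x axis) for the 8 genes below 0 on arrays 1 and 2 and above 0 on arrays 3 and 4 (filled circles), with the medians of 2 marker lists (open symbols). Hmox1 spans from -0.46 to 0.44, and the monocyte and macrophage median is lowest on array 2 and highest on array 4.

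Cell markers compared as follows, beside shares of 12.7% lower and 8.63% higher among all features. Of astrocyte markers 3 of 12 fell, of microglia markers 6 of 12 and of neutrophil markers 2 of 9 tested, and none of these lists held a gene that rose. The neutrophil genes Elane and Csf3r and the microglia gene C1qc each lost their call in 4 of 13 other settings. The astrocyte gene Aldoc lost it in 1. Slc1a2 (astrocyte) and Cx3cr1 (microglia) kept theirs in all 13, and a dimmer Cx3cr1 probe was at -0.09. The summed linear levels of these lists are weighted to the brightest probes, and bright features were lower as a set. Astrocyte markers summed to 234800 to 260600 in the knockout-labelled samples and 277500 to 295800 in the wild type. Microglia markers summed to 116900 to 128100 and 132500 to 146300, and neutrophil markers to 45580 to 54140 and 57800 to 66540. Csf3r alone, whose own levels overlapped, made up 79.0 to 93.1% of the neutrophil sum, and on array 4 the neutrophil list had a median above 0 (0.04). Without the brightest marker of each list (Aldoc, Siglech and Csf3r) the astrocyte sums (140100 to 160200 and 150800 to 161100) and the neutrophil sums (3709 to 10920 and 6270 to 10290) overlapped, and the microglia sums did not (72160 to 81330 and 81790 to 86560). Of monocyte and macrophage markers none of 8 passed, with sums of 2350 to 6770 and 3334 to 4643. The sums of the neuron, oligodendrocyte, endothelial and erythrocyte lists overlapped between the groups as well. The neutrophil markers Ngp and Ltf did not pass the filter on dim probes, and Ly6g, Ly6c2, Cd68 and Hbb-b1 were not analysed here. Of 7 erythrocyte markers 1 fell and of 10 endothelial markers 1 fell, of 10 neuron markers 1 rose and 1 fell, and of 10 oligodendrocyte markers 2 rose and 1 fell. The part of such cell differences in the ferritin, Sod1, Cat, Gpx4 and Prdx2 values was not tested. In bulk tissue, fewer cells of a type and less RNA per cell cannot be told apart.

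Other genes of the same pathways changed in both directions. Of 189 further genes in 6 lists, 181 were tested, 18 rose and 31 fell (27.1% in all, against 21.3% of all features), and 132 did not pass, with a median of -0.02. Leaving out replicate 1 or 2 lowered the falls to 9 and 10, and leaving out any 1 replicate lowered the rises to between 6 and 8. The genes named from these lists were those with the smallest p in each direction. Their adjusted p ranged from 0.00118 to 0.0496 (limma). The 4 arrays had 1 sign for each, and 28 of the 31 had levels that did not overlap between the groups. A choice by small p favours both traits, so they add no support. Of all 181 genes tested, 21 had knockout-labelled levels wholly above the wild type and 28 wholly below. Among all features the shares were 9.1% and 10.7%. Of the genes named as higher, all but Mgst3 and Noxa1 turned below 0 with median centring.

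Further NRF2 pathway genes fell in 10 of 28 cases and rose in 3 (46.4% in all, against 21.3% of all features). Ugdh, which makes glucuronic acid for conjugation, stood at -0.32 ± 0.11, the quinone reductase gene Nqo2 at -0.32 ± 0.12, and Slc7a11, the cystine importer that supplies glutathione synthesis, at -0.31 ± 0.15. Slc7a11 had -0.49, -0.37, -0.23 and -0.16 on arrays 1 to 4, so it was lower on every array. Those that rose were Tkt, the transketolase of the pentose phosphate pathway, at 0.39 ± 0.04, and the NRF2 relative Nfe2l1 at 0.20 ± 0.07. The biliverdin reductase gene Blvra also rose, at 0.18 ± 0.05, a call lost in 7 of 13 settings. Its other probe was at -0.05, and the mean of its probes gave 0.07 (limma, adjusted p = 0.257). Tkt lies on chromosome 14, as do Ndrg2, Gch1, Selenok and Ncoa4, whereas none of the 37 genes does.

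Further glutathione genes rose in 6 and fell in 6 of 37 cases (32.4% in all, against 21.3% of all features). Glrx2, the mitochondrial glutaredoxin, had the lowest ratio of this list's named genes at -0.65 ± 0.07, and its other probes were at -0.23 and -0.05. Its probe, like that of Fth1, was among the brightest 100 features, and it lay 0.28 below their median, or 0.05 with the mean of its probes. The transferase genes Gstm6 and Gstt3 fell by 0.37 ± 0.10 and 0.28 ± 0.08. The other Gstm6 probes were at -0.19 and 0.03. The microsomal transferase gene Mgst3 rose by 0.48 ± 0.10, with a second probe at 0.32, the glutamyltransferase family gene Ggt7 by 0.32 ± 0.05 and Gstm4 by 0.21 ± 0.06.

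Among thioredoxin and selenoprotein genes 4 of 29 rose and 3 fell (24.1% in all, against 21.3% of all features). Pstk, a kinase needed to make selenocysteine, rose by 0.25 ± 0.06, Park7, encoding the oxidant sensor DJ-1, by 0.20 ± 0.04 with a second probe at 0.19, and Selenop, the selenium carrier that supplies the brain, by 0.19 ± 0.03. Selenow, Selenon and Selenok fell by 0.41 ± 0.14, 0.39 ± 0.08 and 0.15 ± 0.05, and the second probe of Selenok was at 0.10. The call of Selenok was lost in 9 of 13 settings, and Selenow stood at -0.17 (adjusted p = 0.101) with the scanner software's log ratios.

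Iron and haem genes beyond the 5 described above passed in 16.7% of cases, against 21.3% of all features, with 2 of 42 higher and 5 lower. The genes that rose both act on ferritin protein: Pcbp1, a chaperone that brings iron to ferritin, by 0.22 ± 0.05 and Ncoa4, the receptor that sends ferritin to lysosomes, by 0.16 ± 0.06. The call of Ncoa4 was lost in 10 of 13 settings, and in 1 of these, median centring, the gene passed as lower. Of haem synthesis, Cpox fell by 0.26 ± 0.07 and Alas1, its first enzyme, by 0.17 ± 0.07 (a call lost in 7 of 13 settings), and the folate and haem transporter gene Slc46a1 fell by 0.28 ± 0.12.

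Of further ferroptosis and lipid peroxidation genes 2 of 27 rose and 5 fell (25.9% in all, against 21.3% of all features). Gch1, which makes the antioxidant tetrahydrobiopterin, fell by 0.66 ± 0.42, with -1.12, -0.91, -0.25 and -0.38 on arrays 1 to 4 and a very dim second probe at 0.13. The oxidoreductase gene Por fell by 0.25 ± 0.13 and the iron-sulfur protein gene Cisd3 by 0.23 ± 0.08, whose second probe was at 0.01. The phospholipid enzyme genes Pcyt1a and Mboat2 rose by 0.22 ± 0.03 and 0.17 ± 0.08, the latter a call lost in 7 of 13 settings.

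Enzymes that produce oxidants showed 2 falls and 1 rise among 18 (16.7% in all, against 21.3% of all features). The phagocyte NADPH oxidase genes Cyba, its membrane subunit, and Rac2, its GTPase, fell by 0.36 ± 0.17 and 0.37 ± 0.28. Both were lower by more on arrays 1 and 2, with -0.50, -0.51, -0.24 and -0.18 for Cyba, and a dimmer Cyba probe was at -0.04. Noxa1, an activator of another NADPH oxidase, rose by 0.16 ± 0.08, a call lost in 8 of 13 settings. Over the 31 named genes, 14 had 16 other kept probes, of which 11 had the same sign. Besides the losses given above, calls were lost in 6 of 13 settings for Rac2 and Selenop. They were lost in 5 for Cyba, Gch1, Cisd3, Park7 and Gstm4, in 4 for Slc7a11, Nfe2l1 and Pcbp1, and in 3 for Slc46a1 and Por.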

How the data were processed

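The members and gene lists were chosen with earlier results of these data known. Per the file headers, the scanner files came from Agilent Feature Extraction 11.0.1.1, and per the submitters' processing notes from 10.7.3.1. The deposited spot and background intensities (median signals, linear) were corrected with normexp (offset 50), turned into ratios and normalized by loess within arrays in limma 3.58.1 (R 4.3.3), with control spots at weight 0. Single-channel levels are after Aquantile scaling. Per the file headers, flags are other values of 0 or 1. They removed 139 to 186 outlier spots per array, and no spot was saturated. Probes well above background on at least 3 of 4 arrays in either channel were kept (30270 of 39429), and the brightest stood for a gene. Of all probes, 27427 (69.6%) were named by accession through a RefSeq table of GRCm38.p6. The array design is annotated on mm9, so gene coordinates were not used.

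Ratios were tested against 0 with lmFit and eBayes. The array thereby pairs 2 samples of the same replicate number, and an alternative left this replicate block out. In simulated data of 24575 features, 12 of 50 changes of 1.2-fold and 40 of 50 of 1.5-fold were recovered with 3 false calls. The simulated arrays were drawn independently, without a trend with brightness, a dye effect or pairs of arrays that resemble each other. The 3 false calls therefore do not measure the false calls in the real arrays. Far fewer features were changed in the simulation than the 5230 that passed in the real arrays, and the adjustment of p depends on that number. The recovered shares therefore do not measure how many real changes of those sizes were found. The deposited log10 ratio of a spot is Cy5 over Cy3, per the file headers. The authors' series matrix holds log2 values, equal to the log2 ratio of processed Cy5 to Cy3 signals for 39030 probes with 1 spot, so its direction, wild type over knockout, is opposite to the one used here. The 4 arrays had medians of -0.05, -0.06, -0.04 and -0.03 in it, without other centring. These processed signals were the scanner software alternative. Others were no background correction, an offset of 10, median centring, other filters, the mean of probes, each replicate left out and, added after seeing the data, a loess span of 0.1. Per the labels' protocols, RNA was labelled after linear amplification, in a text that speaks of plant shoots. Named beside the 37 genes were Ndrg2, up to 3 genes per direction that passed with the smallest p in each further pathway list, and up to 2 per cell marker list.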

Additional observations from a re-analysis of the deposited data

Results flagged for a closer look

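Of 81 named genes, 5 had 1 array with a ratio far from the other arrays, the gap being over Dixon's 95% critical share of the range for 4 samples. Chance flags about 1 in 20 groups, or 4.05 here. Gclc, the catalytic subunit gene of glutathione synthesis, stood at -0.194 on array 1, where the other arrays averaged -0.096. The glutathione reductase gene Gsr was at 0.028 on array 4 against -0.090. Prdx6 was at 0.059 on array 2 against -0.173. Pstk was at 0.343 on array 1 against 0.217, and Gstm4 at 0.129 on array 2 against 0.240. The array that stood apart had the opposite sign to the others for Gsr and Prdx6.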

How the results depend on the processing

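Of the 37 genes 2 rose and 5 fell. Without background correction 4 rose, with median centring 0 rose and 33 fell, and with 1 replicate left out 1 to 2 rose and 3 fell. The falls numbered 2 with the scanner software's log ratios and with the mean of probes, 3 with a loess span of 0.1 and 3 without the replicate block. The median of the 37 genes was -0.38 with median centring. Of the other pathway genes (18 rose, 31 fell), 9 rose and 9 fell with the scanner software's log ratios, 20 fell with an offset of 10, 133 with median centring, 15 without the replicate block, and 6 to 8 rose and 9 to 24 fell with 1 replicate left out. Ndrg2 stood at -0.043 with the scanner software's log ratios, -0.129 with a loess span of 0.1 and -0.207 to -0.170 with 1 replicate left out. Over all features, calls ranged from 6339 higher and 13177 lower with median centring to 808 and 1219 without replicate 2, and without the replicate block they were 1286 and 1583. The scanner software's log ratios gave 1688 and 1752.

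Median centring reversed Keap1 (-0.164), Gss (-0.230), Gpx1 (-0.382), Gpx4 (-0.424), Gstm1 (-0.396), Gstm5 (-0.311), Mgst1 (-0.249), Prdx1 (-0.377), Prdx2 (-0.254), Prdx3 (-0.284), Prdx5 (-0.467), Tfrc (-0.223) and Acsl4 (-0.379). It also reversed Tkt (-0.124), Ggt7 (-0.065), Pstk (-0.076), Pcyt1a (-0.101), Pcbp1 (-0.323), Park7 (-0.328), Gstm4 (-0.040), Selenop (-0.357), Nfe2l1 (-0.035), Blvra (-0.087), Mboat2 (-0.159), Ncoa4 (-0.210), Nefm (-0.110) and Olig2 (-0.088). Listed are genes that passed with median centring or with loess. Median centring leaves the trend of ratio with brightness in place. Of the 30 genes that did not pass, Nqo1, Gpx3 and Gsta4 passed in none of the 13 settings. The cause of the other shifts was not tested. Dim features are limited by their signal over background.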

Other observations

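Oligodendrocyte markers held genes called in both directions. Olig2, a transcription factor of the oligodendrocyte lineage, rose by 0.16 ± 0.04 (SD, n = 4; limma, adjusted p = 0.0347), while Sox10, another factor of that lineage, fell by 0.49 ± 0.41 (adjusted p = 0.0448), with -0.68, -0.97, -0.17 and -0.12 on arrays 1 to 4. The haemoglobin gene Hba-a2 fell by 0.46 ± 0.35 (adjusted p = 0.0340), with -0.48, -0.90, -0.37 and -0.07. The neurofilament gene Nefm, which lies on chromosome 14, rose by 0.26 ± 0.04 (adjusted p = 0.0088) and Gad2, which makes the transmitter GABA, fell by 0.24 ± 0.17 (adjusted p = 0.0438). The calls of Sox10 and Gad2 were lost in 6 of 13 other settings and those of Olig2 and Hba-a2 in 7, and Olig2 and Nefm turned below 0 with median centring.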
